A study of Homo sapiens with 24 samples.

Results

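The 6 genes described here encode the subunits of protein kinase A, the kinase that cyclic AMP (cAMP) switches on: the regulatory subunits PRKAR1A, PRKAR1B, PRKAR2A and PRKAR2B and the catalytic subunits PRKACA and PRKACB. They were taken by name, each from the array row whose platform annotation gives it as the only gene symbol. Of the 6, 5 had such a row in the core summaries, among 14232 genes in all; PRKAR1B had none there and was read from the extended summaries. The set was chosen by the measured JQ1 difference of PRKAR2B, whose RNA differed strongly between JQ1-treated and control cells, so that difference is given as a description with no test. Exon arrays were hybridised with total RNA of MHH-CALL4 and MUTZ-5, 2 human acute lymphoblastic leukaemia cell lines, treated with JQ1, an inhibitor of the BET bromodomain proteins, or with its solvent DMSO. The 4 groups were MHH-CALL4 with 500 nM JQ1 for 8 h, MHH-CALL4 with DMSO for 8 h, MUTZ-5 with 500 nM JQ1 for 8 h and MUTZ-5 with DMSO for 8 h, with 3 arrays each, all grown in the same serum-supplemented RPMI medium. Each array was summarised in a core and in an extended form. The labels do not say whether the 3 arrays of a group came from separate cultures, so p-values measure only the spread between these arrays, which may be technical, and their number limits the precision.

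In its resting form protein kinase A is a tetramer of 2 regulatory and 2 catalytic subunits. cAMP binds the regulatory subunits and frees the catalytic ones, which then phosphorylate targets such as the transcription factor CREB. In lymphocytes the pathway is reached through receptors coupled to the stimulatory G protein, and is known as a brake on activation and growth. Type I regulatory subunits (PRKAR1A and PRKAR1B) and type II ones (PRKAR2A and PRKAR2B) differ in how they bind the anchoring proteins that hold the kinase at membranes and organelles.

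The stretches upstream of the 2 type II genes are shown because these close relatives had unlike values under JQ1. Each is the 250 bases before the annotated start, from RefSeq (GRCh38.p14), read 5′ to 3′ on the gene's strand. PRKAR2B lies at chr7:107044455-107044704 on the plus strand and PRKAR2A at chr3:48847875-48848124 on the minus strand. Capitals mark the E-box CACGTG and the GC box GGGCGG, searched on both strands with the CREB-type letters TGACGTCA and its core TGACG, which lies within it and was absent from both stretches.
PRKAR2B: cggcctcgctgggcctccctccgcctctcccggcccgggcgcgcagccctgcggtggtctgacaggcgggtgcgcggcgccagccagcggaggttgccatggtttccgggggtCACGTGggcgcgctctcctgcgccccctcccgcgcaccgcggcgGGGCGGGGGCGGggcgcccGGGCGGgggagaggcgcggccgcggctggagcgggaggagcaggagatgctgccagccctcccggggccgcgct
PRKAR2A: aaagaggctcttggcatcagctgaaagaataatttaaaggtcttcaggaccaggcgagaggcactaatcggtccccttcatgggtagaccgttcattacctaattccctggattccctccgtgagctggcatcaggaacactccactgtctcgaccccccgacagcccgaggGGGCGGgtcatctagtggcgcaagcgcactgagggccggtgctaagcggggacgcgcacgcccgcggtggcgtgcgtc
The PRKAR2B stretch is 81.6% G or C and held CACGTG, with its first base 137 bases before the start, and GGGCGG with first bases 93, 87 and 74 before it, of which the first 2 adjoin. The PRKAR2A stretch is 60% G or C and held 1 GGGCGG, 78 bases before the start, and no CACGTG. Of 35116 annotated human promoters of the same length, 6.34% held CACGTG, 42.6% GGGCGG, 21.2% TGACG and 1.65% TGACGTCA. Among the other subunits, 1 of the 5 PRKAR1A starts held CACGTG, and none of the starts of PRKAR1B, PRKACA or PRKACB did. These matches describe letters only, and no binding was measured.

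Array values are log2 signals after robust multi-array averaging (RMA), so 1 unit is a 2-fold difference, and values of different genes are not compared, since their probes differ. A gene was called where the adjusted p of limma, over all genes tested, was under 0.05. In bulk RNA, fewer cells of a type and less RNA per cell cannot be told apart. Precursor B cell markers averaged 11.65 with JQ1, against 11.92 with DMSO, in MHH-CALL4, with 4 of 9 called lower and 0 higher, and 11.59 with JQ1, against 11.78 with DMSO, in MUTZ-5, with 4 called lower and 2 higher. Of these 9 markers, 7 to 8 lay above the 75th percentile of all genes in each group, while 6 of 7 T and NK cell markers lay below the median in every group. Myeloid markers averaged 7.52 in JQ1-treated MHH-CALL4, against 8.15 in its DMSO arrays, with 2 of 5 called lower, and 7.41 in JQ1-treated MUTZ-5, against 7.43 in its DMSO arrays, with 1 of 5 called lower. The part of the marker lists in the results was not tested. MYC, an oncogene known to be lowered by BET inhibition, differed by -2.05 (MHH-CALL4) and -1.32 (MUTZ-5), and HEXIM1, an inhibitor of the elongation factor P-TEFb and a known marker of BET inhibition, by 1.76 and 1.51, all 4 called. On the first axis of within-group variation, which held 43.9% of that variance, replicate 3 of MHH-CALL4 with JQ1 (score -0.47) and replicate 3 of MUTZ-5 with DMSO (score 0.55) lay at the 2 ends.

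PRKAR2B, the type II beta regulatory subunit, had the widest range of the subunits in the core summaries. In MHH-CALL4 it was 9.71, 9.42 and 9.09 with JQ1, against 7.62, 7.67 and 7.50 with DMSO. In MUTZ-5 it was 8.68, 8.63 and 8.41 with JQ1, against 5.91, 5.97 and 6.47 with DMSO. Every JQ1 array lay above every DMSO array, across both lines. The mean was 9.41 ± 0.31 with JQ1 and 7.59 ± 0.086 with DMSO in MHH-CALL4 (SD, n = 3 each), a difference of 1.81 or 3.51-fold. In MUTZ-5 it was 8.57 ± 0.14 with JQ1 and 6.12 ± 0.31 with DMSO (SD, n = 3 each), a difference of 2.45 or 5.48-fold. The MUTZ-5 DMSO level was near the low end of the scale, with only 14.1% of genes lower, where array signals give little resolution.

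**Figure D1:**
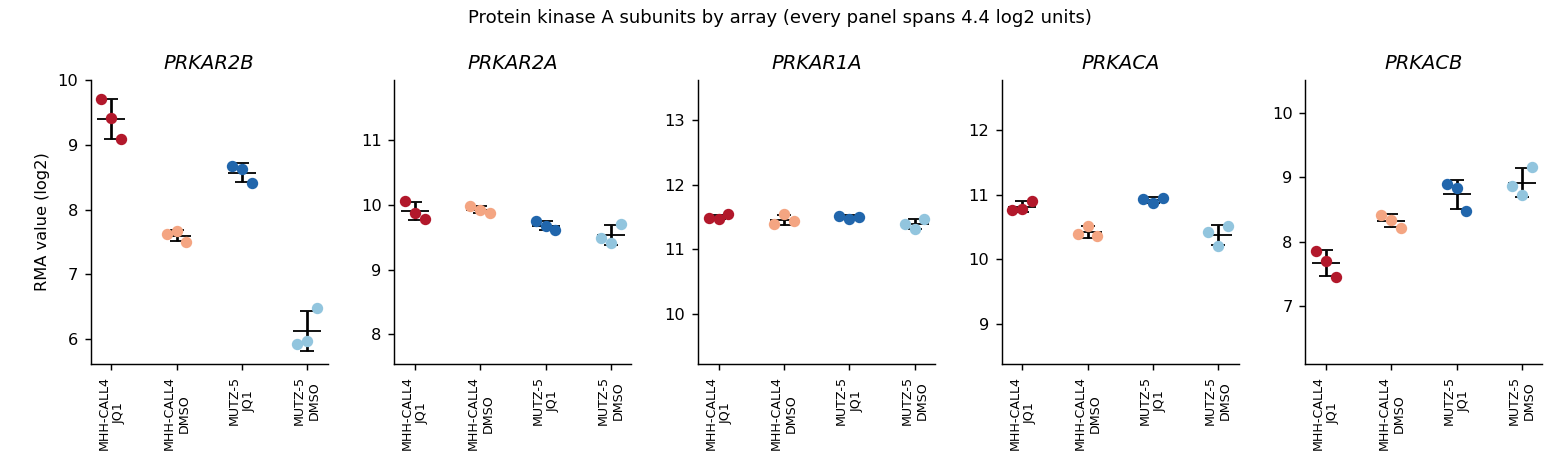
RMA value (log2) of each subunit with a core row in each of the 12 arrays, by group, with the mean and SD of 3 arrays as bars; every panel spans the same number of log2 units. PRKAR2B groups do not overlap at all, from 5.91 to 6.47 in MUTZ-5 with DMSO up to 9.09 to 9.71 in MHH-CALL4 with JQ1, while PRKAR1A stays between 11.3 and 11.5 throughout.

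The 4 groups ranked, from high to low, MHH-CALL4 with JQ1, MUTZ-5 with JQ1, MHH-CALL4 with DMSO and MUTZ-5 with DMSO, and no neighbours in that order overlapped. MUTZ-5 thus had less PRKAR2B RNA than MHH-CALL4 in either condition, by 2.78-fold with DMSO (difference -1.48, SE 0.16, adjusted p = 9.48e-06) and by 1.79-fold with JQ1 (-0.84, SE 0.16, adjusted p = 0.00163). The JQ1 difference was larger in MUTZ-5 than in MHH-CALL4 by 0.64 (SE 0.23, 95% interval 0.15 to 1.13), which did not pass the adjusted threshold (limma interaction, adjusted p = 0.270). It passed in none of the 12 fits without 1 array. Without the 2 arrays at the ends of the within-group axis, a fit outside the plan, it was 0.66 with an adjusted p of 0.0489. PRKAR2B itself followed that axis (r = 0.96), so leaving those arrays out narrows its spread, and that fit cannot decide the question. In the extended summaries, which add less well supported exons, the JQ1 differences were 1.56 in MHH-CALL4 and 1.75 in MUTZ-5, and the interaction was 0.19 (interval -0.19 to 0.58, adjusted p = 0.879). Whether the lines differ in the size of the PRKAR2B response is therefore not settled by these arrays.

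PRKAR2A, the type II alpha regulatory subunit, did not pass the test for JQ1 in either line. In MHH-CALL4 it was 10.07, 9.88 and 9.78 with JQ1, against 9.98, 9.92 and 9.87 with DMSO, and in MUTZ-5 it was 9.75, 9.68 and 9.61 with JQ1, against 9.49, 9.42 and 9.71 with DMSO. The groups overlapped within each line. The differences were -0.015 (95% interval -0.22 to 0.19, adjusted p = 0.930) and 0.14 (-0.060 to 0.34, adjusted p = 0.365). Like PRKAR2B it was lower in MUTZ-5 than in MHH-CALL4 with DMSO, by 0.38 on the log2 scale (difference -0.38, SE 0.093, adjusted p = 0.00807). With JQ1 the line difference was -0.23 (adjusted p = 0.120). It was called with cyclic loess (-0.26, adjusted p = 0.00997) but not with the planned replicate block. In fits outside the plan it was -0.29 (adjusted p = 0.0199) without the 2 arrays that stood apart, and -0.23 (adjusted p = 0.0430) with the replicate number as a block over the JQ1 arrays alone. PRKAR2A followed the axis that set those 2 arrays apart (r = 0.94), so leaving them out narrows its spread. An extra PRKAR2A row, found only in the extended summaries, gave JQ1 differences of 0.090 (adjusted p = 0.446) and 0.067 (adjusted p = 0.706).

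PRKAR1A, the type I alpha regulatory subunit and the one found in most tissues, was the steadiest. Its values ran from 11.47 to 11.54 with JQ1 against 11.39 to 11.54 with DMSO in MHH-CALL4, and from 11.47 to 11.52 with JQ1 against 11.31 to 11.47 with DMSO in MUTZ-5. All neighbouring groups overlapped. The JQ1 differences were 0.045 (95% interval -0.11 to 0.20, adjusted p = 0.687) and 0.11 (-0.043 to 0.26, adjusted p = 0.352), and the line differences were -0.067 with DMSO (adjusted p = 0.553) and -0.0033 with JQ1 (adjusted p = 0.992).

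PRKAR1B, the type I beta regulatory subunit, best known from the nervous system, was covered by 2 extended rows that gave unlike sizes. In the row 4049106 it was 7.52, 7.72 and 7.59 with JQ1, against 8.35, 8.28 and 8.36 with DMSO, in MHH-CALL4. In MUTZ-5 the same row gave 7.34, 7.27 and 7.42 with JQ1, against 7.43, 7.72 and 7.66 with DMSO. JQ1 arrays were thus lower than DMSO arrays in both lines, without overlap, but only the MHH-CALL4 difference was called (-0.72, SE 0.087, 1.65-fold lower, adjusted p = 0.000147), in a fit of 19963 extended rows of which 12.3% were called lower. In MUTZ-5 the difference was -0.26 (adjusted p = 0.0730), where 8.53% of extended rows were called lower. That value was -0.35 (adjusted p = 0.0278) without replicate 1 of MUTZ-5 with DMSO. In the row 4049465 the differences were -0.19 (adjusted p = 0.127) in MHH-CALL4 and -0.21 (adjusted p = 0.107) in MUTZ-5, neither called, and the second was -0.30 (adjusted p = 0.0200) without replicate 3 of MUTZ-5 with JQ1. Both rows had a lower mean with JQ1 in both lines, and with DMSO the mean was lower in MUTZ-5 than in MHH-CALL4, a difference called in 1 row only (-0.72, adjusted p = 9.39e-05, in the row 4049106; -0.15, adjusted p = 0.254, in the row 4049465). The JQ1 differences did not differ between the lines past the threshold in either row (0.46, adjusted p = 0.169; -0.028, adjusted p = 0.984).

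The catalytic subunits moved in opposite directions in MHH-CALL4. PRKACA, the alpha catalytic subunit, was 10.77, 10.78 and 10.91 with JQ1, against 10.39, 10.52 and 10.36 with DMSO, in MHH-CALL4, and 10.94, 10.87 and 10.95 with JQ1, against 10.42, 10.21 and 10.52 with DMSO, in MUTZ-5. All 6 JQ1 arrays lay above all 6 DMSO arrays. It rose 1.31-fold in MHH-CALL4 (difference 0.39, SE 0.087, adjusted p = 0.00392) and 1.45-fold in MUTZ-5 (0.54, SE 0.087, adjusted p = 0.000508). The lines did not differ past the threshold in its JQ1 change (0.14, interval -0.12 to 0.41, adjusted p = 0.795), nor in its level with DMSO (-0.041, adjusted p = 0.791) or with JQ1 (0.10, adjusted p = 0.558).

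PRKACB, the beta catalytic subunit, was 7.86, 7.70 and 7.46 with JQ1, against 8.42, 8.34 and 8.22 with DMSO, in MHH-CALL4, where it fell 1.57-fold (difference -0.65, SE 0.14, adjusted p = 0.00281). In MUTZ-5 it was 8.89, 8.83 and 8.48 with JQ1, against 8.86, 8.73 and 9.16 with DMSO, a difference of -0.19 that did not pass the test (95% interval -0.48 to 0.11, adjusted p = 0.434). The MHH-CALL4 groups did not overlap and the MUTZ-5 groups did. The difference between the lines in the JQ1 change was 0.47 (interval 0.051 to 0.89, adjusted p = 0.394), so a response particular to MHH-CALL4 was not shown. In the extended summaries the MHH-CALL4 difference was -0.40, with an adjusted p of 0.0340 over the core genes and 0.0641 over all 19963 extended rows. MUTZ-5 had more PRKACB RNA than MHH-CALL4 with DMSO (0.59, SE 0.14, 1.51-fold, adjusted p = 0.00587) and with JQ1 (1.06, SE 0.14, 2.08-fold, adjusted p = 5.47e-05), the reverse of the line order of PRKAR2B.

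**Figure D2:**
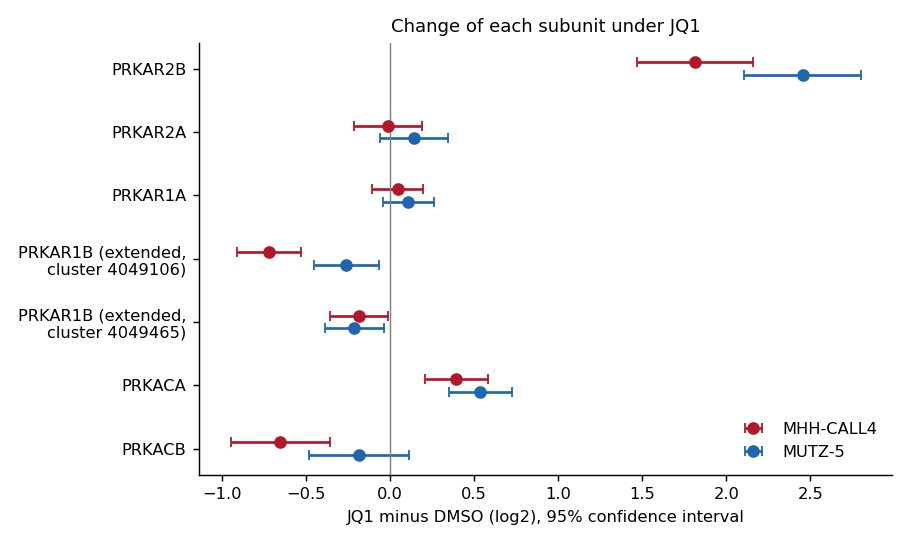
JQ1 minus DMSO (log2) of each subunit in MHH-CALL4 and in MUTZ-5, with 95% confidence intervals from the limma fit; PRKAR1B is from its 2 extended rows. The PRKAR2B points, 1.81 and 2.45, lie far to the right of all others, which run from -0.72 to 0.54. PRKAR2B was chosen by these differences, so its intervals are no test of them.

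Leaving PRKAR2B aside, 1 of the other 4 subunits with a core row was called higher with JQ1 in MHH-CALL4 (PRKACA), where 11.0% of all genes were, and 1 was called lower (PRKACB), where 17.5% were. In MUTZ-5, 1 was called higher (PRKACA), where 9.06% of genes were, and none lower, where 13.0% were. None of the 5 was called for a difference of the JQ1 effects between the lines, for which 1.53% of genes were, although 2 of the 5, PRKAR2B and PRKACB, had an unadjusted limma p under 0.05. The share of all genes under that unadjusted threshold was not counted. Between the lines, 3 of 5 were called with DMSO (PRKAR2B, PRKAR2A and PRKACB), against 23.4% of all genes, and 2 of 5 with JQ1 (PRKAR2B and PRKACB), against 19.9%. With so few members these shares cannot be set apart from those of all genes.

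Within groups, the deviations of the subunits from their group means fell into 2 sets. Over the 12 arrays, PRKAR2A went with PRKAR2B (Pearson r = 0.94) and with PRKACB (0.93), and PRKAR2B with PRKACB (0.91). PRKAR1A went with PRKACA (0.92), and the coefficients across the 2 sets ran from 0.13 to 0.27. The first set followed the first axis of within-group variation, with r of 0.96 for PRKAR2B, 0.96 for PRKACB and 0.94 for PRKAR2A, against 0.21 for PRKAR1A and 0.15 for PRKACA. Coefficients of 0.9 or more in size were found for 12.2% of all genes, and the median size was 0.60. The arrays share their normalisation, so these coefficients describe how arrays of 1 group differed. A fit outside the plan left out the 2 arrays at the ends of the axis, which narrows the spread of genes that follow it. There the PRKAR2B difference with JQ1 was 1.97 in MHH-CALL4 and 2.63 in MUTZ-5. That of PRKACA was 0.35 (adjusted p = 0.00712) and 0.60 (adjusted p = 0.000242), and that of PRKACB was -0.55 (adjusted p = 0.00467) and -0.062 (adjusted p = 0.759).

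**Figure D3:**
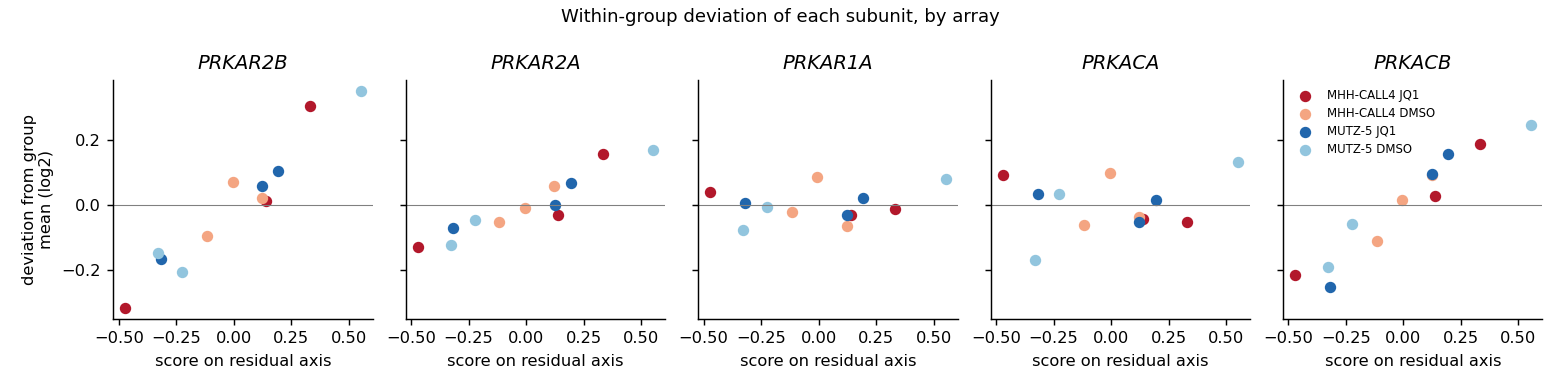
Deviation of each subunit from its group mean (log2) against the score of the array on the first axis of within-group variation, 12 arrays. PRKAR2B, PRKAR2A and PRKACB rise along the axis (r of 0.94 to 0.96), and PRKAR1A and PRKACA do not (0.21 and 0.15).

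Among 2441 genes whose core values spanned at least 1 log2 unit, those with values most like PRKAR2B over the 12 arrays were RSRP1 (Pearson r = 0.993), CAPRIN2 (0.983), VCL (0.982), TENT5C (0.980) and ARHGAP26 (0.979). VCL encodes vinculin, a protein of cell adhesions, CAPRIN2 an RNA-binding protein and TENT5C a poly(A) polymerase. JQ1 differences ran from 0.89 (RSRP1) to 1.63 (CAPRIN2) in MHH-CALL4 and from 1.01 (RSRP1) to 1.61 (CAPRIN2) in MUTZ-5, all smaller than those of PRKAR2B. With DMSO the line differences, MUTZ-5 minus MHH-CALL4, ran from -0.51 (ARHGAP26) to -0.999 (CAPRIN2). The genes were picked for likeness to PRKAR2B over these same arrays, so the shared signs follow from the choice and are no separate finding. The likeness rests mostly on the 4 group means. Within groups the coefficient with PRKAR2B was 0.93 for RSRP1, 0.84 for ARHGAP26, 0.73 for VCL, 0.67 for CAPRIN2 and 0.066 for TENT5C.

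**Figure D4:**
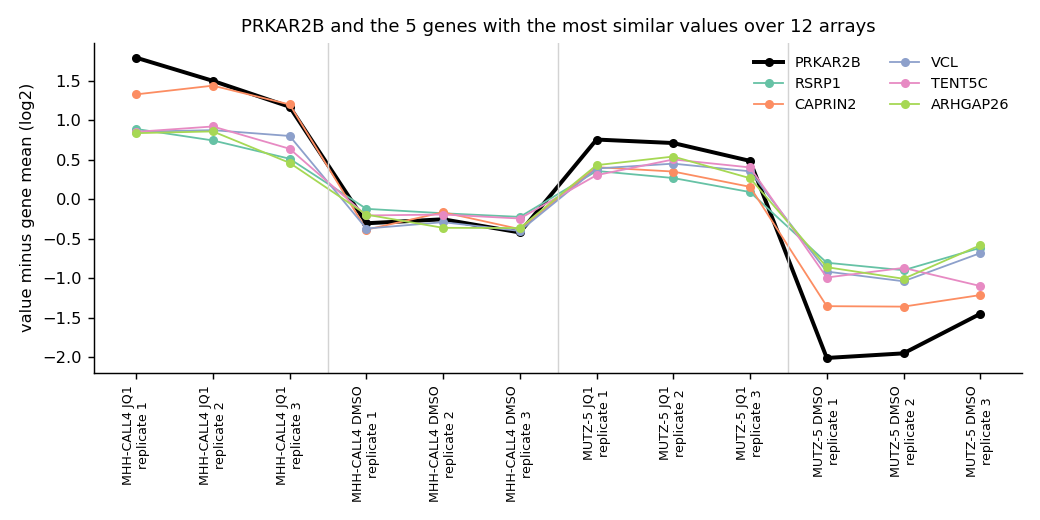
Value minus the gene's own mean (log2) of PRKAR2B and of the 5 genes with the most similar values, array by array. All 6 lines are high in MHH-CALL4 with JQ1 and low in MUTZ-5 with DMSO, which follows from choosing the 5 genes by likeness over these arrays. PRKAR2B has the widest range.

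Around the subunits, 78 of 100 listed genes of the cAMP and protein kinase A pathway were measured. With JQ1, 5 were called higher and 12 lower in MHH-CALL4 (6.41% and 15.4%, against 11.0% and 17.5% of all genes), with a median difference of 0.029 against 0.0065 over all genes. In MUTZ-5, 8 were called higher and 11 lower (10.3% and 14.1%, against 9.06% and 13.0%), with a median of 0.032 against 0.0084. Over the whole pathway the medians were near 0, and the shares called lower were close to those of all genes in both lines.

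**Figure D5:**
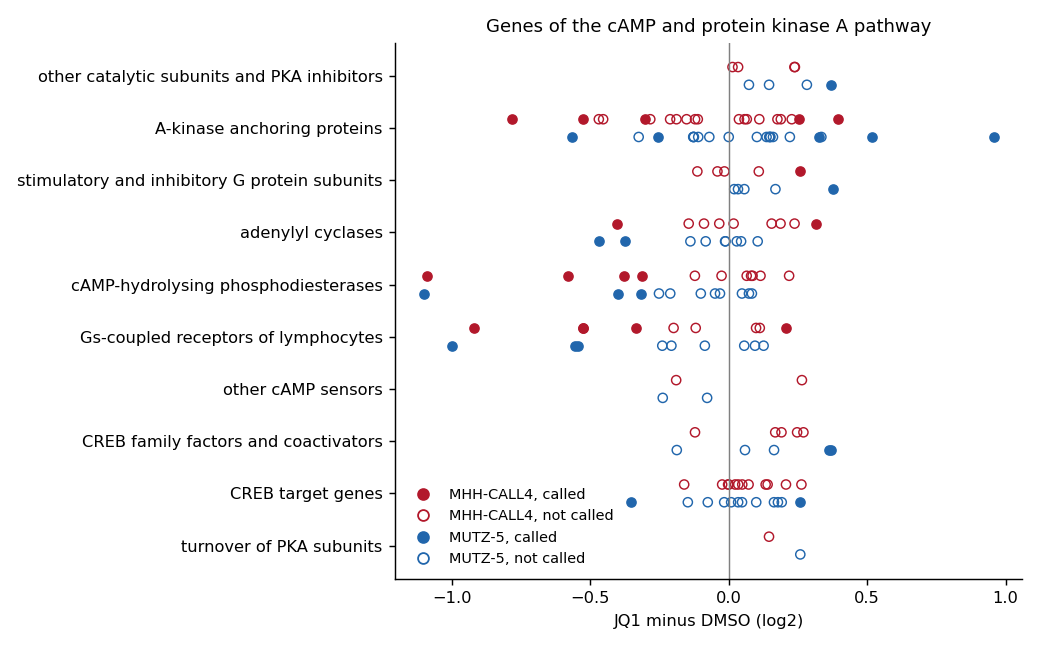
JQ1 minus DMSO (log2) of every measured pathway gene by list, MHH-CALL4 above MUTZ-5; filled points passed the adjusted threshold. The lowest points, -1.09 and -1.10, are PDE4B in both lines, and the highest, 0.96, is the anchoring protein NBEA in MUTZ-5.

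Of the phosphodiesterases, which break cAMP down, 4 of 11 were called lower in MHH-CALL4, where 17.5% of all genes were, and 3 of 11 in MUTZ-5, where 13.0% were. None was called higher in either line, where 11.0% and 9.06% of all genes were. With 11 genes these counts cannot be set apart from the shares of all genes, and the same holds for the other pathway lists. PDE4B, a main cAMP-degrading enzyme of leukocytes, was 7.58, 7.45 and 7.34 with JQ1, against 8.52, 8.56 and 8.56 with DMSO, in MHH-CALL4. In MUTZ-5 it was 8.27, 8.25 and 8.26 with JQ1, against 9.41, 9.27 and 9.40 with DMSO. It fell by 1.09 and 1.10 on the log2 scale, 2.13-fold and 2.14-fold, with adjusted p of 2.86e-07 and 3.28e-07 and no overlap. In the extended summaries PDE4B differed by -0.67 in MHH-CALL4 (adjusted p = 3.06e-05) and by -0.86 in MUTZ-5 (adjusted p = 4.93e-06). PDE4A of the same family fell by 0.58 in MHH-CALL4 (adjusted p = 4.32e-05) and by 0.32 in MUTZ-5 (adjusted p = 0.00541). PDE4D fell by 0.31 (adjusted p = 0.0282) and by 0.40 (adjusted p = 0.00916), and the first of these calls was lost without replicate 1 or 3 of MHH-CALL4 with DMSO (-0.27 and -0.32) or replicate 1 or 3 of MHH-CALL4 with JQ1 (-0.31 and -0.27). PDE8A fell by 0.38 in MHH-CALL4 (adjusted p = 0.00662) and differed by -0.25 in MUTZ-5 (adjusted p = 0.0654).

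Of 9 receptors coupled to the stimulatory G protein, 4 were called lower and 1 higher in MHH-CALL4, and 3 lower and none higher in MUTZ-5, against 17.5% lower and 11.0% higher, and 13.0% lower and 9.06% higher, of all genes. PTGER4, a prostaglandin E2 receptor, was 10.46, 10.26 and 10.19 with JQ1, against 11.34, 11.14 and 11.19 with DMSO, in MHH-CALL4, and 9.33, 9.26 and 9.35 with JQ1, against 9.80, 9.77 and 9.99 with DMSO, in MUTZ-5. It fell in both lines, by 0.92 (adjusted p = 5.74e-06) and by 0.54 (adjusted p = 0.000632). PTGER2, another prostaglandin E2 receptor, fell by 0.999 in MUTZ-5 (adjusted p = 2.60e-05). In MHH-CALL4 PTGER2 differed by -0.34 (adjusted p = 0.0379), from overlapping groups at the low end of the scale, and lost the call without 1 of 5 arrays, namely replicate 1 or 3 of MHH-CALL4 with DMSO (-0.25 and -0.32), replicate 1 or 2 of MHH-CALL4 with JQ1 (-0.25 and -0.33) or replicate 2 of MUTZ-5 with JQ1 (-0.34). The PTGER2 call was also lost in the extended summaries (-0.23, adjusted p = 0.158) and with median centring (adjusted p = 0.0629). The same held with the replicate block (adjusted p = 0.0742) and with the arrays of that line alone (adjusted p = 0.0616). PTGDR, the prostaglandin D2 receptor, fell by 0.55 in MUTZ-5 (adjusted p = 0.0111). In MHH-CALL4 PTGDR differed by -0.52 (adjusted p = 0.0131), from overlapping groups at the low end of the scale. That call was lost in the extended summaries (-0.40, adjusted p = 0.0524) and without replicate 2 of MHH-CALL4 with JQ1 (-0.44, adjusted p = 0.0582) or replicate 2 of MHH-CALL4 with DMSO (-0.42, adjusted p = 0.0699). HRH2, a histamine receptor, fell by 0.52 in MHH-CALL4 (adjusted p = 0.000631; -0.17, adjusted p = 0.0967, in the extended summaries) and differed by -0.24 in MUTZ-5 (adjusted p = 0.0770).

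The A-kinase anchoring proteins went both ways. Of 20 measured, 2 were called higher and 3 lower in MHH-CALL4, where 11.0% and 17.5% of all genes were. In MUTZ-5, 3 were called higher and 2 lower, where 9.06% and 13.0% of all genes were. AKAP1, which holds type II kinase at the outer mitochondrial membrane, was 10.22, 10.17 and 10.23 with JQ1, against 10.91, 11.09 and 10.97 with DMSO, in MHH-CALL4, and fell by 0.78 there (1.72-fold, adjusted p = 2.82e-06). It fell by 0.57 in MUTZ-5 (1.48-fold, adjusted p = 6.31e-05), without overlap in either line. NBEA, a large scaffold that binds type II regulatory subunits, was 8.50, 8.52 and 8.17 with JQ1, against 7.36, 7.25 and 7.71 with DMSO, in MUTZ-5, where it rose 1.94-fold (0.96, adjusted p = 7.20e-05). In MHH-CALL4 NBEA was at the low end of the scale in both groups, 6.13, 6.23 and 6.10 with JQ1, against 6.002, 6.22 and 6.13 with DMSO (difference 0.037, adjusted p = 0.857). The JQ1 differences of NBEA differed between the lines by 0.92 (SE 0.17, adjusted p = 0.0133), the only pathway gene of 78 called for that. The NBEA call was lost with the replicate block (adjusted p = 0.0921), and in the extended summaries the difference was 0.75 (adjusted p = 0.0499). AKAP8L, a nuclear relative of the anchoring protein AKAP8, rose by 0.52 in MUTZ-5 (adjusted p = 0.000114) and by 0.25 in MHH-CALL4 (adjusted p = 0.0145, and 0.0506 with a difference of 0.25 without replicate 3 of MHH-CALL4 with DMSO). MYRIP, an anchoring protein of secretory granules, fell by 0.53 in MHH-CALL4 (adjusted p = 0.00545) and differed by 0.15 in MUTZ-5 (adjusted p = 0.489). In MUTZ-5 both MYRIP groups were at the low end of the scale.

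Upstream, none of the 5 stimulatory and inhibitory G protein subunits was called lower, where 17.5% of all genes were in MHH-CALL4 and 13.0% in MUTZ-5. In each line 1 was called higher, GNAI2, where 11.0% and 9.06% of all genes were. GNAI2, an inhibitory subunit that restrains adenylyl cyclase, rose by 0.38 in MUTZ-5 (adjusted p = 0.00312). In MHH-CALL4 GNAI2 differed by 0.26 (adjusted p = 0.0245), a call lost without replicate 2 or 3 of MHH-CALL4 with DMSO (0.23 and 0.25) or replicate 1 or 2 of MHH-CALL4 with JQ1 (0.23 and 0.28). Of 9 adenylyl cyclases, the enzymes that make cAMP, 1 was called higher and 1 lower in MHH-CALL4, where 11.0% and 17.5% of all genes were. In MUTZ-5, none was called higher and 2 lower, where 9.06% and 13.0% of all genes were. ADCY9 fell by 0.40 in MHH-CALL4 (adjusted p = 0.00288), and ADCY2 differed by 0.32 there (adjusted p = 0.0128), or by 0.26 (adjusted p = 0.0618) without replicate 2 of MHH-CALL4 with DMSO. ADCY7, a cyclase of blood cells, fell by 0.47 (adjusted p = 0.000505) and ADCY6 by 0.37 (adjusted p = 0.00556) in MUTZ-5.

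Downstream, none of the 5 measured CREB family factors and coactivators was called in MHH-CALL4, where 11.0% of all genes were called higher and 17.5% lower. In MUTZ-5, 2 of the 5 were called higher and none lower, where 9.06% and 13.0% of all genes were. Of 12 measured CREB target genes, none was called in MHH-CALL4, and 1 was called higher and 1 lower in MUTZ-5, against the same shares. In MHH-CALL4, 3 of the 5 factors and 2 of the 12 targets had an unadjusted limma p under 0.05. The share of all genes under that unadjusted threshold was not counted, so these counts cannot be read as a response. CREB1 itself differed by 0.36 in MUTZ-5 (adjusted p = 0.0129), a call lost without replicate 2 of MUTZ-5 with DMSO (0.31) or replicate 1 or 2 of MUTZ-5 with JQ1 (0.31 and 0.35). CREM, a CREB family factor, differed by 0.37 in MUTZ-5 (adjusted p = 0.0345). Its call was lost without replicate 1 or 2 of MUTZ-5 with JQ1 (0.28 and 0.41) or replicate 1 or 2 of MUTZ-5 with DMSO (0.32 and 0.31), and with cyclic loess (0.36, adjusted p = 0.102). The target called higher, FOS, an immediate early transcription factor, differed by 0.26 (adjusted p = 0.0442), and lost the call in 8 of the 12 fits without 1 array, with values from 0.20 to 0.27 and adjusted p from 0.0532 to 0.172. Those fits lacked replicate 1 or 2 of MHH-CALL4 with JQ1, replicate 3 of MHH-CALL4 with DMSO, replicate 1 or 3 of MUTZ-5 with JQ1, or any 1 of the MUTZ-5 arrays with DMSO. The target called lower, EGR1, another such factor, differed by -0.35 (adjusted p = 0.0161), or by -0.31 (adjusted p = 0.0701) without replicate 1 of MUTZ-5 with JQ1. Of the 4 measured other catalytic subunits and kinase inhibitors, PKIB, an inhibitor peptide of the kinase, was called higher in MUTZ-5 (0.37, adjusted p = 0.0158), a call lost without replicate 1 of MUTZ-5 with DMSO (0.34) or replicate 3 of MUTZ-5 with JQ1 (0.32). PKIB was the only gene of the 4 called in MUTZ-5, where 9.06% of all genes were called higher and 13.0% lower. None of the 4 was called in MHH-CALL4, where 11.0% of all genes were called higher and 17.5% lower. There, 1 of the 4 had an unadjusted p under 0.05, for which the share of all genes was not counted.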

How the data were processed

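RNA of 2 leukaemia lines, treated with JQ1 or DMSO, was measured on 12 Affymetrix exon arrays, 3 for each of 4 groups taken from the sample labels. The authors deposited log2 values per transcript cluster, normalised and summarised by RMA in Affymetrix Expression Console, per the submitters' processing notes; software versions and the genome build are not given in the sources used here. Core and extended summaries of the same arrays were given, and the core one was used unless stated. All 24 value columns were mapped to samples by their labels, with 0 left unused. Of 22011 core clusters, 14432 had 1 gene symbol in the platform annotation, 2408 had several and 5171 had none, and neither of the last kinds was named. The cluster with the highest mean over the arrays stood for a gene, which left 14232 genes.

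Contrasts were fitted over all genes with limma 3.58.1 in R 4.3.3, with 1 mean per group, moderated variances, two-sided tests and Benjamini-Hochberg adjustment at 0.05. The fit was tested on simulated data. PRKAR1B was fitted among 19963 extended clusters with 1 symbol. Named pathway genes were, per list, up to 4 called with JQ1 by size of change, and likeness to PRKAR2B was ranked by Pearson r among genes spanning at least 1 log2 unit. The members and lists were chosen with earlier results of these data known. No 2 arrays were identical. Same-numbered JQ1 arrays of the 2 lines deviated together from their group means (r = 0.23, 0.20 and 0.47), so the number was tried as a block there, an alternative added after the data had been seen. Promoters are from RefSeq (GRCh38.p14). Alternatives were the extended summaries, median centring, cyclic loess, a filter that drops the lowest 25% of genes, robust variances, array weights, replicate block, 1 line at a time, the lowest row of a gene and each array left out. Leaving out both arrays at the ends of the within-group axis was not in the plan. The plan gave array weights without naming an estimator.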

Additional observations from a re-analysis of the deposited data

Results flagged for a closer look

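The JQ1 differences of 2 named genes differed between the lines by the interaction test of limma. NBEA, the anchoring scaffold, differed by 0.92 more in MUTZ-5 than in MHH-CALL4 (SE 0.17, adjusted p = 0.0133), with all 3 JQ1 arrays above all 3 DMSO arrays in MUTZ-5 and overlapping groups in MHH-CALL4. That call was lost with the replicate block (adjusted p = 0.0921). MYC fell less in MUTZ-5 than in MHH-CALL4, with an interaction of 0.73 (SE 0.097, adjusted p = 0.00112), from differences of -1.32 and -2.05. With groups of 3 arrays, single genes were not searched for outlying values. Whole arrays were examined by their scores on the within-group axis, by array weights and by leaving each out.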

How the results depend on the processing

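No called value changed direction under any alternative, and 70 of 3412 recomputed single-gene values changed sign without being called under either setting; 79 lost their call and 86 gained one. PRKACA in both lines, PRKACB in MHH-CALL4 and the PRKAR2B line differences kept their calls in every alternative run over the core genes. The interaction of PRKAR2B ran from 0.19 (extended summaries) to 0.82 (without 1 array). Counts of genes for the interaction, 218 at first, were 157 to 360 without 1 array, the highest without replicate 3 of MUTZ-5 with DMSO. The pathway count for the interaction, 1 at first, was 2 in the extended summaries, 3 with cyclic loess, 2 with the filter on low values and 1 to 2 without 1 array, 2 without replicate 1 of MHH-CALL4 with DMSO or with JQ1; the MHH-CALL4 pathway count of 17 was 27 with cyclic loess. Array weights moved the counts most. The default estimator stopped without converging and gave replicate 1 of MUTZ-5 with DMSO a weight of 17.1 and replicate 3 a weight of 0.18; it called 6667 genes in MHH-CALL4 (4057 at first), 9335 in MUTZ-5 (3138), 3533 for the interaction, 8724 between the lines with DMSO (3330) and 5331 with JQ1 (2836), and 38, 49, 22, 46 and 29 pathway genes. A gene-by-gene estimator, added after these counts had been seen, called 6230, 6061, 1537, 5806 and 4950 genes, and 38, 33 and 12 pathway genes for the JQ1 contrasts and 34 between the lines with DMSO. Under both estimators the interactions of PRKAR2B (0.80, adjusted p = 0.000256, and 0.79, adjusted p = 0.00251) and PRKACB (0.51, adjusted p = 0.00279, and 0.53, adjusted p = 0.0144) passed the threshold, as did PRKAR2A with JQ1 in MUTZ-5 (0.19 and 0.20, adjusted p = 0.000495 and 0.0148) and PRKAR2A between the lines with JQ1 (-0.21 in both, adjusted p = 0.00613 and 0.0117); PRKAR1A with JQ1 in MUTZ-5 passed under the default one alone (0.094, adjusted p = 0.0128). The cause was not tested. Median centring moved the share of called genes that were lower with JQ1 to 51.5% in MHH-CALL4 (61.5% at first) and 48.5% in MUTZ-5 (58.9%). Deviations of same-numbered JQ1 and DMSO arrays correlated at 0.30, 0.070 and 0.23 in MHH-CALL4 and at -0.17, -0.21 and -0.44 in MUTZ-5. Those of differently numbered arrays ran from -0.30 to 0.10 in MHH-CALL4 and from -0.32 to 0.39 in MUTZ-5. Whether the numbers pair JQ1 with DMSO arrays is thus not settled. Across the lines, deviations of same-numbered arrays correlated at 0.23, 0.20 and 0.47 for JQ1 arrays and at -0.20, -0.092 and -0.26 for DMSO arrays. With the number as a block over the JQ1 arrays, 3493 genes were called between the lines, against 2836, PRKAR2A gained its call and ADCY7 lost it (0.23, adjusted p = 0.0752). That fit also left out the DMSO arrays, so these changes cannot be credited to the replicate number. The planned block over all 12 arrays called 2565 genes there, and not PRKAR2A. With the replicate block, the interaction count was 136, with 0 pathway genes, NBEA having an adjusted p of 0.0921. That block also removed the JQ1 calls of GNAI2, PDE4D and PTGER2 in MHH-CALL4 and of CREM and FOS in MUTZ-5. Fitted 1 line at a time, PTGER2 in MHH-CALL4 and CREM, EGR1 and FOS in MUTZ-5 lost their JQ1 calls. Signals near the low end of the scale limit PRKAR2B in MUTZ-5 with DMSO and NBEA in MHH-CALL4.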

Other observations

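With DMSO, 11 of the 78 measured pathway genes were called higher in MUTZ-5 than in MHH-CALL4 and 9 lower, against 23.4% of all genes called either way, so the pathway is not set apart by its count. The receptors called were 3 of 9. PTGDR, the prostaglandin D2 receptor, was 11.91, 11.94 and 12.19 in MUTZ-5, against 6.72, 7.20 and 7.09 in MHH-CALL4, a difference of 5.01 (SE 0.14, limma adjusted p = 1.16e-11). The MHH-CALL4 level is near the low end of the scale, with 26.3% of genes lower, which limits what the size of this difference can say. PTGER2 was higher in MUTZ-5 by 1.28 (adjusted p = 1.06e-06), and PTGER4 was lower in MUTZ-5 by 1.37 on the log2 scale (difference -1.37, adjusted p = 6.29e-08). The line differences of the 2 prostaglandin E2 receptors thus had opposite signs.

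EGR1 was higher in MUTZ-5 by 1.97 (adjusted p = 2.50e-09), PDE4B by 0.81 (adjusted p = 1.93e-06) and NBEA by 1.33 (adjusted p = 1.72e-06), while MYRIP was lower, with a difference of -1.34 (adjusted p = 1.68e-06). Each line is a single cell line, so these are differences between MUTZ-5 and MHH-CALL4 only.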
